A study of Mus musculus with 2 samples.

Results

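Nuclear receptors are transcription factors that are switched by small lipid-soluble molecules such as thyroid hormone, retinoic acid, steroids and fatty acids. In mouse iWAT, the inguinal white fat that lies under the skin, 31 genes of this family were followed across the cell classes of a single-nucleus RNA sequencing study, out of 31053 genes in the matrices. The genes were taken as a list of named family members, and each one had a row in both matrices. For each gene the unique molecular identifiers (UMIs, tags that mark each captured RNA molecule) were added up per library and class and divided by all UMIs of that class, which gives CPM (counts scaled to a class total of 1e6). Of the 31 genes, 29 had at least 1 UMI in kept nuclei (labelled WT) and 30 did (labelled KO).

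Most members bind DNA as dimers at short repeats of a hexamer, and retinoid X receptors such as Rxrb and Rxrg are the shared partners of the thyroid hormone, retinoic acid, vitamin D, bile acid and fatty acid receptors. Steroid receptors bind as pairs of themselves, and the orphan receptors act without a known or required ligand. In adipose tissue the family is known for its part in adipocyte differentiation, lipid storage, thermogenesis and the response to glucocorticoids, while COUP-TFII (Nr2f2) is known for its place in venous and lymphatic endothelium.

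The study asked how the long noncoding RNA Lexis, deleted in adipose tissue, bears on iWAT. Both groups were male mice on a C57BL/6 background that carried the floxed Lexis allele and were fed a Western diet for 4 weeks. In the group Lexis KO a Cre driven by the Adipoq promoter, which is active in adipocytes, removed the allele, and the group Lexis WT consisted of littermates without the Cre. Each genotype was 1 library of iWAT pooled from 3 mice, dissected without the lymph node. No age is attached to these mice in the labels.

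With 1 pooled library per genotype there were no replicates, so no test was made, and every interval below is a 95% interval that covers counting error only. File names and labels name opposite genotypes for 2 of 2 libraries, and the targeted gene was not analysed here, so its level does not check them and the libraries are called by their labels. After filtering, 3503 nuclei with a median of 1195 UMIs were kept in the library labelled WT and 2850 nuclei with a median of 3876.5 UMIs in the library labelled KO. The libraries shared 12 barcodes of 5000 each, 10 of them among the nuclei that passed the filter. Clusters of the merged matrix, made without any nuclear receptor gene among the variable genes, were named from marker lists. The classes held 421 and 892 adipocyte-like nuclei (labelled WT and labelled KO), 293 and 785 like adipogenic stem and precursor cells or fibroblasts (ASPC-like), 90 and 122 endothelial-like, 434 and 879 myeloid-like and 2109 and 75 lymphocyte-like nuclei (60.2% and 2.63% of the kept nuclei). Adipocyte-like nuclei of the library labelled WT came from cluster 4 (421 nuclei) and those of the library labelled KO from cluster 1 (887 nuclei), ASPC-like nuclei from cluster 8 (288) against clusters 5 (380) and 6 (377), and myeloid-like nuclei mainly from cluster 7 (328) against clusters 3 (543) and 9 (239). A cluster that comes mostly from 1 library may be that library and not a type. Lymphocyte-like nuclei came mainly from clusters 0 (1236) and 2 (780) against cluster 14 (57), and endothelial-like nuclei of both libraries shared cluster 10. All 14 adipocyte markers were detected in the adipocyte-like nuclei of the library labelled WT. Lymphocyte markers had counts outside their class, with 20 of 21 detected in adipocyte-like nuclei labelled WT (33.3% of the summed CPM in lymphocyte-like nuclei, Klrb1c at 0) and 19 of 21 labelled KO (46.0%), where the B and T cell markers Cd79a and Cd3e were at 0.232 and 0.116 CPM in cluster 1. The summed CPM of the 14 adipocyte markers in the other 4 classes was 6.38 to 22.1% of that in adipocyte-like nuclei. The part of RNA from other classes in the levels below was not tested.

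The promoters of 6 members that the class patterns turn on are shown first, as the 250 bases before a transcription start in RefSeq on the build GRCm38.p6 (mm10), 5′ to 3′ on the gene's strand. Thrb and Rxrg were enriched in adipocyte-like and Nr2f2 in endothelial-like nuclei of both libraries, Rorb and Nr2f1 had the largest enrichments in ASPC-like nuclei among members with at least 20 counts in each library, and Rarb is shown for a retinoic acid response motif. Capitals mark matches on either strand to the nuclear receptor hexamer AGGTCA, the GC box GGGCGG, the cAMP response element TGACGTCA or a pair of GTTCA pentamers with 6 bases between them, a spacing of retinoic acid response elements, and a match on the opposite strand reads as its reverse complement, for example CCGCCC. Overlapping matches run together.
Thrb (chr14:17660710-17660959, plus strand): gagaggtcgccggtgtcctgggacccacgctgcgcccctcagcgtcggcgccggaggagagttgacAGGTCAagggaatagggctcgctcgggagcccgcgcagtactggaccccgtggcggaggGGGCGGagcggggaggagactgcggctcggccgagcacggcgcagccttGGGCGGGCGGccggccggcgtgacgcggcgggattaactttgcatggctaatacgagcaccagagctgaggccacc
Rxrg (chr1:167598112-167598361, plus strand): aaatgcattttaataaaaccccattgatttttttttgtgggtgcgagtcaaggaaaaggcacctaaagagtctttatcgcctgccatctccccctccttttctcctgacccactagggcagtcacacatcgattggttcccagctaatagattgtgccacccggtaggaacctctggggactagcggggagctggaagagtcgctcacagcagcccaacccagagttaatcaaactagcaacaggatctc
Rorb (chr19:19111197-19111446, minus strand): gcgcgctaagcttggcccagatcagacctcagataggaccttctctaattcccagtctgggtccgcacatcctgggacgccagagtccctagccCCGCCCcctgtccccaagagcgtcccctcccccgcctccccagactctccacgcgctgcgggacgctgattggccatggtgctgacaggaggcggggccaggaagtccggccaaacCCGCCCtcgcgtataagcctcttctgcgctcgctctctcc
Nr2f1 (chr13:78198874-78199123, minus strand): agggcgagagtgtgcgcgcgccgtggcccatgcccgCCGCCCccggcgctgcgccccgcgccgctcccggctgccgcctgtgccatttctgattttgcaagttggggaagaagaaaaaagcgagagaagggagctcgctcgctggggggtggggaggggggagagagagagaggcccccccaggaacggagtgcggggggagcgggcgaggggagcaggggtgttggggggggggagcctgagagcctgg
Nr2f2 (chr7:70366747-70366996, minus strand): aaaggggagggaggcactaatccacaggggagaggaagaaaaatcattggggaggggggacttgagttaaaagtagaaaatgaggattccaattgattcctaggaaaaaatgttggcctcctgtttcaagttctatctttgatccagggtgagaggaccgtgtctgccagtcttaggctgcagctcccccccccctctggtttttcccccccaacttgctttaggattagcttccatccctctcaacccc
Rarb (chr14:16575477-16575726, minus strand): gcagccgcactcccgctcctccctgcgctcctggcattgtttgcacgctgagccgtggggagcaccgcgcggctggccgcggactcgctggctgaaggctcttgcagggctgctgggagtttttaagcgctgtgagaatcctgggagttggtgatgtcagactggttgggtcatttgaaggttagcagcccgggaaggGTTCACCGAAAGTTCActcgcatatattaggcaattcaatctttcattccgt
Windows of 29 of the 31 members were used, since Thra had none listed and Nr3c1 was left out. The hexamer AGGTCA lay in a window of 6 members, against 14% of all 32851 windows. GC boxes lay in a window of 17 members (32.7% of all windows), TGACGTCA in none (1.55%), and the spaced pentamer pair in Rarb alone, against 22 of all windows (0.0670%). Several members have more than 1 listed start, and of their 43 windows 6 held the hexamer and 20 a GC box. The Thrb window held both the hexamer and GC boxes, and the windows of Rxrg and Nr2f2 printed here held none of the 4 motifs. A match is a run of letters and not a measured binding site.

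The members were sparse in the library labelled WT and less so in the library labelled KO. They took 4799 of 6635144 kept UMIs (labelled WT) and 46258 of 15614666 (labelled KO). Over all kept nuclei, 19 members reached 50 counts (labelled WT) and 22 (labelled KO), while 11 and 5 stayed under 20 counts. Rora alone gave 18464 and Thrb 6843 of the counts in the library labelled KO, against 391 and 115 in the library labelled WT. The small heterodimer partner Nr0b2, a repressor of other receptors in the liver, had 0 counts in both libraries. Hnf4a, a liver and gut regulator, had 1 count in each library, Esr2 had 1 and 8, and Pgr had 2 and 5, so that no class level could be read for them.

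Members were called enriched in a class when their CPM there was at least 2 times that of all other kept nuclei in both libraries, and depleted when it was at most 0.5 times in both, which asks for the same pattern in each library by itself. With at least 20 counts in each library, 20 of the 31 members could be read. In ASPC-like nuclei 6 of the 20 were enriched (Thra, Rarg, Rora, Rorb, Nr2f1 and Esr1), against 7.84% of all 12610 genes read the same way. In adipocyte-like nuclei 2 were enriched (Thrb and Rxrg, background 7.82%), and in endothelial-like nuclei 1 (Nr2f2, background 6.10%). None was enriched in myeloid-like (7.30%) or lymphocyte-like nuclei (10.7%). With only nuclei of at least 1000 detected genes, the ASPC count was 2 (Rorb and Nr2f1).

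Depletion was commonest in lymphocyte-like nuclei, where 7 of the 20 members (Thrb, Rora, Rorb, Nr2f1, Esr1, Nr3c2 and Nr6a1) were at or below 0.5 times the other nuclei in both libraries, against 17.9% of all genes. Nr2f1, with 67 counts in all kept nuclei labelled KO, was too sparse to be low beyond counting error in the 75 lymphocyte-like nuclei there. That class came mainly from clusters with B or T cell markers labelled WT and from a cluster with T or NK cell markers labelled KO, so its cell mix differed between the libraries. Adipocyte-like nuclei had 3 depleted members (Rarg, Rorb and Nr2f1, background 23.4%), endothelial-like nuclei 4 (Thrb, Rxrg, Esr1 and Nr1i3, 13.5%), myeloid-like nuclei 3 (Rora, Rorb and Nr2f2, 12.6%) and ASPC-like nuclei 1 (Esrra, 13.5%). Thrb, Rxrg and Nr1i3 had 0 counts in endothelial-like nuclei labelled WT, with intervals of the ratio that reach past 1, so that among these 4 only Esr1 was low beyond counting error in both libraries.

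**Figure D1:**
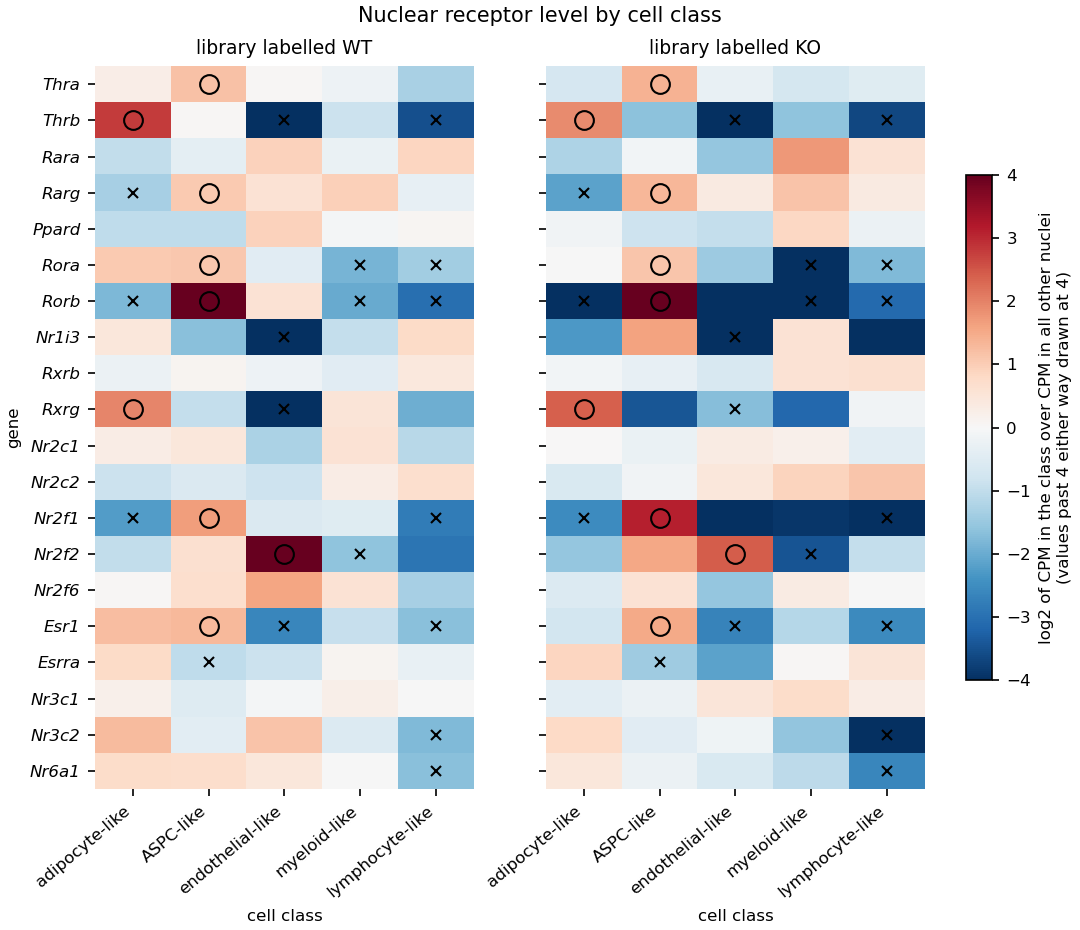
Heat map of the 20 members with at least 20 counts in each library, by class (columns) and library (panels), with colour for the log2 of the class CPM over the CPM of all other kept nuclei, clipped at 4. Circles mark at least 2 times in both libraries and crosses at most 0.5 times in both. The ASPC column holds 6 circles and the lymphocyte column 7 crosses.

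Orders, ranges and leading classes below are over the 5 classes compared in both libraries, and the mural-like, myocyte-like and unnamed nuclei, some of which lie higher, are given at the end. Among the 5 classes the class with the highest CPM was the same in both libraries for 12 of the 19 members that had at least 20 counts in the 5 classes of each library, against 54.8% of 12472 genes. For 5 of these (Thra, Thrb, Rorb, Nr2f1 and Nr2f2) the leading class stood ahead of the next beyond counting error in both libraries, against 16.8% of all genes. Leading classes differed between the libraries for Rara, Ppard, Nr2c1, Nr2f6, Esrra, Nr3c2 and Nr6a1.

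**Figure D2:**
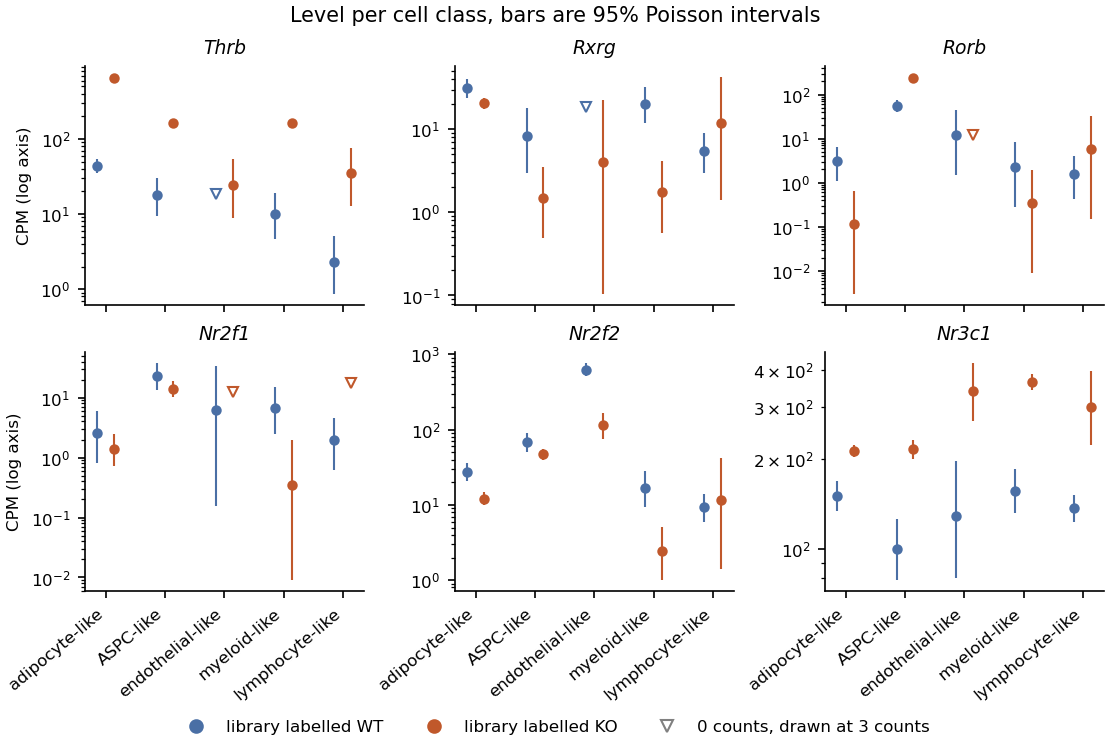
CPM on a log axis in each of 5 classes for Thrb, Rxrg, Rorb, Nr2f1, Nr2f2 and Nr3c1, with the library labelled WT in blue and the library labelled KO in orange. Bars are 95% Poisson intervals of the summed counts and open triangles stand for 0 counts, drawn at 3 counts. Thrb leads in adipocyte-like, Rorb and Nr2f1 in ASPC-like and Nr2f2 in endothelial-like nuclei in both libraries, whereas Nr3c1 spans 100.1 to 157 CPM labelled WT and 213 to 363 CPM labelled KO.

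The thyroid hormone receptors divided between the classes. Thrb (ENSMUSG00000021779, chr14:17659225-18040097), the form known for hepatic and adipose responses to the hormone, stood at 43.4 CPM in adipocyte-like, 17.8 in ASPC-like, 0 (0 counts, which allow up to 18.4) in endothelial-like, 10.2 in myeloid-like and 2.33 in lymphocyte-like nuclei in the library labelled WT. Its levels in the library labelled KO were 649 CPM in adipocyte-like, 164 in ASPC-like, 24.5 in endothelial-like, 163 in myeloid-like and 35.3 in lymphocyte-like nuclei. Adipocyte-like nuclei were thus the highest of these 5 classes in each library, 6.97 times (labelled WT) and 3.67 times (labelled KO) over all other nuclei, and stood ahead of ASPC-like nuclei, the next class, by 2.43 times (1.35 to 4.76) and 3.96 times (3.63 to 4.34). After thinning every nucleus to 1000 UMIs, 4.62% of adipocyte-like nuclei labelled WT and 45.1% of those labelled KO held a Thrb UMI, against 0.276% and 3.12% of lymphocyte-like nuclei. Unthinned, the adipocyte shares were 18.1% and 90.7%, at median depths of 3686 and 7853 UMIs. Thinning left out the shallower nuclei, so that 411 and 887 adipocyte-like and 1085 and 64 lymphocyte-like nuclei remained.

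Thra, the form that most tissues use, led instead in ASPC-like nuclei among the 5 classes. It stood at 67.1 CPM in adipocyte-like, 118 in ASPC-like, 61.4 in endothelial-like, 51.9 in myeloid-like and 31 in lymphocyte-like nuclei in the library labelled WT, and at 51.9 CPM in adipocyte-like, 127 in ASPC-like, 53.1 in endothelial-like, 43.3 in myeloid-like and 47.0 in lymphocyte-like nuclei in the library labelled KO. The ASPC level was 2.28 times (labelled WT) and 2.61 times (labelled KO) that of the other nuclei, and the lead over the next class was 1.76 times (labelled WT) and 2.40 times (labelled KO). Between libraries the Thra ratios (labelled KO over labelled WT) were 0.773 (0.635 to 0.945) in adipocyte-like and 1.08 (0.854 to 1.38) in ASPC-like nuclei. In RefSeq 19 of the 31 members overlap another gene, 7 of them a protein-coding one, and Thra overlaps Nr1d1. Reads of the overlap were not separated here.

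Retinoic acid receptors, which read the vitamin A derivative made from retinaldehyde, did not share a pattern. Rarg had 23.3 and 61.0 CPM in ASPC-like nuclei (labelled WT and KO), 2.09 times (labelled WT) and 2.49 times (labelled KO) over the other nuclei, and 6.06 and 12.7 CPM in adipocyte-like nuclei, the lowest of the 5 classes in each library. With the other classes weighted equally the ASPC ratio of Rarg was under 2 (1.64 and 1.60 times). The ASPC lead over myeloid-like nuclei (21.5 and 58.1 CPM) was within counting error. Rara ranged from 15.6 CPM in adipocyte-like to 49.1 in endothelial-like nuclei labelled WT, the latter from 8 counts, and from 8.16 in endothelial-like to 56.0 in myeloid-like nuclei labelled KO. None of the 5 classes therefore led for Rara in both libraries.

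Rarb, itself a known retinoic acid target, had only 14 counts (labelled WT) and 544 (labelled KO). In the latter it stood at 29.2 CPM in adipocyte-like, 60.4 in ASPC-like, 12.2 in endothelial-like, 14.8 in myeloid-like and 0 (0 counts, which allow up to 17.6) in lymphocyte-like nuclei, so that ASPC-like nuclei led adipocyte-like nuclei by 2.07 times (1.71 to 2.50). The highest Rarb level of the library labelled KO was in 43 mural-like nuclei (marked by genes of pericytes and smooth muscle), at 140.4 CPM from 19 counts.

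Of the retinoid X receptors, Rxrg was highest in adipocyte-like nuclei among the 5 classes. It stood at 31.3 CPM in adipocyte-like, 8.23 in ASPC-like, 0 (0 counts, which allow up to 18.4) in endothelial-like, 20.3 in myeloid-like and 5.43 in lymphocyte-like nuclei in the library labelled WT. The library labelled KO gave 20.5 CPM in adipocyte-like, 1.51 in ASPC-like, 4.08 in endothelial-like, 1.76 in myeloid-like and 11.8 in lymphocyte-like nuclei. Against all other nuclei the adipocyte level was 3.83 times (labelled WT) and 5.29 times (labelled KO) higher, whereas the lead over the next class (1.54 and 1.74 times) was within counting error, since myeloid-like nuclei labelled WT had 18 counts and lymphocyte-like nuclei labelled KO had 2. At 1000 UMIs, 3.65% and 2.59% of adipocyte-like nuclei held an Rxrg UMI (unthinned 12.8% and 16.5%), against 0.392% and 0.262% of ASPC-like nuclei. Rxrb lay between 27.1 and 41.9 CPM over the 5 classes labelled WT and between 12.2 and 29.4 CPM in those labelled KO.

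The retinoic acid-related orphan receptors, known from the circadian clock and from lymphocyte and nervous system development, were both enriched in ASPC-like nuclei. Rorb (ENSMUSG00000036192, chr19:18930609-19111196) stood at 3.03 CPM in adipocyte-like, 56.2 in ASPC-like, 12.3 in endothelial-like, 2.26 in myeloid-like and 1.55 in lymphocyte-like nuclei in the library labelled WT, where ASPC-like nuclei held 41 of its 55 counts. In the library labelled KO ASPC-like nuclei held 767 of 777 counts, at 231 CPM (215 to 248), while adipocyte-like, myeloid-like and lymphocyte-like nuclei had 1 count each and endothelial-like nuclei 0. The ASPC level over all other nuclei was 23.7 times (12.7 to 47.1) and 285 times (154 to 596). Shares of ASPC-like nuclei with a Rorb UMI at 1000 UMIs were 6.27% and 17.3% (unthinned 10.6% and 31.5%), against 0.243% and 0% (0 of 887 nuclei, which allows up to 0.338%) of adipocyte-like nuclei.

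Rora was broader and more abundant. It stood at 91.9 CPM in adipocyte-like, 111 in ASPC-like, 43.0 in endothelial-like, 18.1 in myeloid-like and 29.8 in lymphocyte-like nuclei in the library labelled WT, and at 1178 CPM in adipocyte-like, 2039 in ASPC-like, 441 in endothelial-like, 51.7 in myeloid-like and 347 in lymphocyte-like nuclei in the library labelled KO. ASPC-like nuclei were the highest of the 5 classes in both libraries (2.12 times (labelled WT) and 2.14 times (labelled KO) over the other nuclei), although their lead over adipocyte-like nuclei was beyond counting error only in the library labelled KO (1.73 times, 1.68 to 1.79). Myeloid-like nuclei had the lowest Rora level of the 5 in both. Shares with a Rora UMI at 1000 UMIs were 10.2% and 74.1% of ASPC-like against 2.33% and 4.73% of myeloid-like nuclei (unthinned 18.1% and 90.6% against 3.00% and 11.1%).

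Ppard, the fatty acid receptor tied to fat oxidation, was low in the library labelled WT, at 7.57 CPM in adipocyte-like, 6.86 in ASPC-like, 24.6 in endothelial-like, 12.4 in myeloid-like and 13.6 in lymphocyte-like nuclei. Of the 5 classes labelled KO, Ppard was highest in myeloid-like nuclei (84.5 CPM), which led adipocyte-like nuclei (52.6 CPM) by 1.61 times (1.37 to 1.88). None of the 5 led for Ppard in both libraries.

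Among the receptors for bile acids, vitamin D and xenobiotics, only the bile acid receptor Nr1h4 (FXR) passed 50 counts in a library. ASPC-like nuclei labelled KO held 390 of its 398 counts in that library, at 118 CPM (106 to 130.0), against 0.347 CPM in adipocyte-like and 1.41 CPM in myeloid-like nuclei. The library labelled WT had 10 counts, of which 4 were in ASPC-like nuclei (5.49 CPM), 2 in adipocyte-like and 4 in a cluster that stayed unnamed. A Nr1h4 UMI was seen in 0.784% and 11.7% of ASPC-like nuclei at 1000 UMIs (unthinned 1.37% and 24.7%), against 0.225% of adipocyte-like nuclei labelled KO. The vitamin D receptor Vdr had 11 and 36 counts, and 23 of the 36 were in myeloid-like nuclei. The xenobiotic receptor Nr1i3 had 27 and 20 counts with no class in the lead, and its gene overlaps Tomm40l.

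The COUP transcription factors, orphan receptors that also act as repressors, led in different classes among the 5 compared. Outside these, Nr2f2 and Nr2f1 were both higher in the mural-like nuclei labelled KO, at 406.5 and 51.7 CPM, the latter from 7 counts. Nr2f2 (ENSMUSG00000030551, chr7:70351946-70366746) stood at 27.8 CPM in adipocyte-like, 68.6 in ASPC-like, 626 in endothelial-like, 16.9 in myeloid-like and 9.30 in lymphocyte-like nuclei in the library labelled WT. The levels labelled KO were 12.2 CPM in adipocyte-like, 46.8 in ASPC-like, 114 in endothelial-like, 2.46 in myeloid-like and 11.8 in lymphocyte-like nuclei. Of these 5 classes, endothelial-like nuclei led the next, ASPC-like nuclei, by 9.13 times (6.45 to 13.1) and 2.44 times (1.57 to 3.67). An Nr2f2 UMI was seen at 1000 UMIs in 37.7% and 7.84% of endothelial-like nuclei (unthinned 43.3% and 13.1%), against 0.581% and 0% (0 of 824 nuclei, which allows up to 0.364%) of myeloid-like nuclei.

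Nr2f1, the close relative of Nr2f2, was low, and of the 5 classes compared highest in ASPC-like nuclei. It stood at 23.3 CPM (17 counts) and 14.2 CPM (47 counts) in ASPC-like nuclei, against 2.52 and 1.39 CPM in adipocyte-like nuclei. ASPC-like nuclei led the next class by 3.44 times (1.29 to 10.7) and 10.2 times (5.33 to 21.1). Nr2f6, another COUP-related gene, ranged between 10.1 and 55.3 CPM in the classes labelled WT and between 4.08 and 16.0 CPM in those labelled KO, with endothelial-like nuclei highest in the former (9 counts) and lowest in the latter (1 count).

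The testicular orphan receptors Nr2c1 and Nr2c2 were detected in every one of the 5 classes of both libraries. Nr2c2 stood between 67.5 and 152 CPM over the classes labelled WT and between 108 and 282 CPM over those labelled KO, with lymphocyte-like nuclei highest in both but within counting error of the next class. Over the same 5 classes Nr2c1 reached 20.3 CPM at most (labelled WT) and 49.0 CPM (labelled KO). Nr2c2 overlaps Mrps25, and reads of the overlap were not separated here.

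Estrogen receptor alpha (Esr1) was highest in ASPC-like and adipocyte-like nuclei among the 5 classes compared. It stood at 61.1 CPM in adipocyte-like, 76.8 in ASPC-like, 6.14 in endothelial-like, 20.3 in myeloid-like and 15.5 in lymphocyte-like nuclei in the library labelled WT. The library labelled KO gave 157 CPM in adipocyte-like, 416 in ASPC-like, 32.6 in endothelial-like, 102 in myeloid-like and 35.3 in lymphocyte-like nuclei, with ASPC-like nuclei ahead of adipocyte-like nuclei by 2.65 times (2.45 to 2.86), whereas the lead of 1.26 times labelled WT was within counting error. Of ASPC-like nuclei 5.49% and 25.5% held an Esr1 UMI at 1000 UMIs (unthinned 15% and 56.8%), against 1.57% and 4.69% of lymphocyte-like nuclei. Esr2, the beta form, was at 1 and 7 counts in adipocyte-like nuclei.

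The estrogen-related receptors bind no estrogen and are known for mitochondrial genes. Esrra stood at 76.7 and 67.0 CPM in adipocyte-like nuclei and at 28.8 and 22.9 CPM in ASPC-like nuclei, 0.499 times (labelled WT) and 0.371 times (labelled KO) the level of the other nuclei. It was thus the member that was depleted in ASPC-like nuclei, and it overlaps Trmt112. Esrrb had 0 counts (labelled WT) and 36 (labelled KO), of which 32 lay in adipocyte-like nuclei (3.70 CPM, 2.53 to 5.23). The 0 counts of adipocyte-like nuclei labelled WT allow up to 1.51 CPM.

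The glucocorticoid receptor Nr3c1 was detected in each of the 5 classes of both libraries. It stood at 151 CPM in adipocyte-like, 100.1 in ASPC-like, 129 in endothelial-like, 157 in myeloid-like and 137 in lymphocyte-like nuclei in the library labelled WT, and at 213 CPM in adipocyte-like, 216 in ASPC-like, 339 in endothelial-like, 363 in myeloid-like and 299.8 in lymphocyte-like nuclei in the library labelled KO. Myeloid-like nuclei were the highest of the 5 classes in both, ahead of the next class by 1.04 and 1.07 times, which is within counting error. At 1000 UMIs 12.7% and 18.8% of adipocyte-like and 11.6% and 28.0% of myeloid-like nuclei held an Nr3c1 UMI (unthinned 41.3%, 68.6%, 23.0% and 54.5%).

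The mineralocorticoid receptor Nr3c2 differed more between classes. It stood at 24.2 and 186 CPM in adipocyte-like nuclei (labelled WT and KO) and at 30.7 and 135 CPM in endothelial-like nuclei, against 5.81 and 5.88 CPM in lymphocyte-like nuclei. The lymphocyte levels were 0.295 times (labelled WT) and 0.0387 times (labelled KO) those of the other nuclei, the latter from 1 count. The progesterone receptor Pgr had 1 and 3 counts in ASPC-like nuclei.

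Nr4a2 and Nr4a3, immediate early genes that act without a ligand, were sparse. Nr4a2 had 13 of its 19 counts in adipocyte-like nuclei labelled WT and 93 of 116 in those labelled KO (6.56 and 10.8 CPM). Nr4a3 had 13 of 18 counts in myeloid-like nuclei labelled WT and 14 of 39 in those labelled KO, all 14 of the latter in cluster 11 (71 nuclei labelled KO, with the dendritic cell markers Flt3, Xcr1, Clec9a, Ccr7 and Ciita), at 79.4 CPM (43.4 to 133). Cluster 11 also held the B cell markers Cd79a (170 CPM) and Ms4a1 (125 CPM) in the library labelled KO. When that library was clustered alone, the 14 counts lay in a myeloid-like cluster of 295 nuclei, and the cluster with B cell markers (34 nuclei) had 0. In the library labelled WT the same cluster (104 nuclei) had 1 Nr4a3 count (3.85 CPM). Lymphocyte-like nuclei labelled KO had 6 counts (35.3 CPM, 12.9 to 76.8).

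Nr5a2, a regulator of bile acid and steroid genes, had its highest CPM of the 5 classes in endothelial-like nuclei, with 7 of 18 counts labelled WT (43.0 CPM, 17.3 to 88.5) and 12 of 19 labelled KO (49.0 CPM, 25.3 to 85.5). Those levels were 10.4 times (2.38 to 62.6) and 46.4 times (12.5 to 256) those of the next class, but the gene lay under the 20 counts asked of each library. Nr6a1, the germ cell nuclear factor, stood over the 5 classes between 3.88 and 13.7 CPM in the library labelled WT and between 23.5 (lymphocyte-like) and 163 CPM (adipocyte-like) in the library labelled KO.

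The same levels were then compared between the libraries within each class, as the ratio labelled KO over labelled WT, for members with at least 50 counts over both libraries. The minimum was on the sum, so a member could pass through the library labelled KO alone. Adipocyte-like nuclei held 1981414 UMIs labelled WT and 8638999 labelled KO. In adipocyte-like nuclei 19 members could be read, of which 9 were at least 2 times higher in the library labelled KO (background 25.5% of 11383 genes) and 2 at most 0.5 times (18.0%). ASPC-like nuclei had 11 of 20 members higher (25.2% of 9234 genes) and 1 lower (8.62%), and myeloid-like nuclei 10 of 15 higher (24.8% of 8984 genes) and 0 lower (12.1%). With no count minimum more members were lower in each of these classes, as given under the dependence on processing. The median log2 ratio of the members was 0.71 in adipocyte-like, 1.25 in ASPC-like and 1.31 in myeloid-like nuclei, against -0.02, 0.14 and 0.11 over all genes. Leaving mitochondrial genes and Malat1 out of the totals moved every log2 ratio by -0.25, -0.27 and -0.27 in these classes, and TMM scaling by 0.05, -0.11 and -0.10.

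Members with large ratios in several classes were Thrb, Rarb, Rora, Ppard, Nr3c2 and Nr6a1. Thrb was 15 times higher (12.1 to 18.7) in adipocyte-like nuclei labelled KO, 9.19 times (5.33 to 17.4) in ASPC-like and 16.0 times (8.37 to 35.3) in myeloid-like nuclei. Rora stood 12.8, 18.4 and 2.86 times higher in these classes, Ppard 6.94, 4.93 and 6.80 times, Nr3c2 7.66, 10.6 and 5.68 times and Nr6a1 12.9, 9.13 and 8.45 times. Rarb was 11.6 and 11.0 times higher in adipocyte-like and ASPC-like nuclei, and Nr1h4 21.5 times (8.31 to 79.1) in ASPC-like nuclei. Rarb (14 counts in the whole library labelled WT) and Nr1h4 (10) passed the count minimum only through the library labelled KO. Ppard (87 counts in the whole library labelled WT), Nr3c2 (95) and Nr6a1 (60) also had under 50 counts labelled WT in each of these classes. The same was true of Thrb in ASPC-like and myeloid-like nuclei and of Rora in myeloid-like nuclei. These ratios were not recomputed with a minimum in each library.

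The remaining members past 2 times were Rarg (2.10, 2.61 and 2.71 times in adipocyte-like, ASPC-like and myeloid-like nuclei), Esr1 (2.57, 5.41 and 5.02 times), Nr2c1 (2.37 times in adipocyte-like and 2.16 in myeloid-like nuclei), Nr3c1 (2.16 and 2.31 times in ASPC-like and myeloid-like nuclei), Rorb (4.12 times in ASPC-like nuclei) and Rara (2.48 times in myeloid-like nuclei). Of these, Rarg, Nr2c1, Rorb and Rara, and Esr1 in myeloid-like nuclei, had under 50 counts labelled WT in the classes named. Lower members were Nr2f2 (0.438 times, 0.313 to 0.618) and Nr2f6 (0.494 times, 0.334 to 0.742) in adipocyte-like nuclei and Rxrb (0.416 times, 0.259 to 0.684) in ASPC-like nuclei. In the small classes, Rora (10.3 times), Nr2c2 (2.66) and Nr3c1 (2.63) were higher and Nr2f2 (0.182) lower among the 4 members read in endothelial-like nuclei (32.0% and 16.2% of all genes). Corrected for intronic length, Nr2c2 and Nr3c1 were no longer past 2 times there (log2 ratios of 0.91 and 0.89), and Rora and Nr2f2 stood at 1.06 and -1.96. Rora (11.6) and Nr3c1 (2.19) were higher among the 7 read in lymphocyte-like nuclei, with none lower (16.1% and 23.4%). The lymphocyte ratios set nuclei mostly with B cell markers (cluster 0, labelled WT) against nuclei with T or NK cell markers (cluster 14, labelled KO, Cd79a at 0 and Cd3e at 235 CPM), and genotype and cell type cannot be told apart there.

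**Figure D3:**
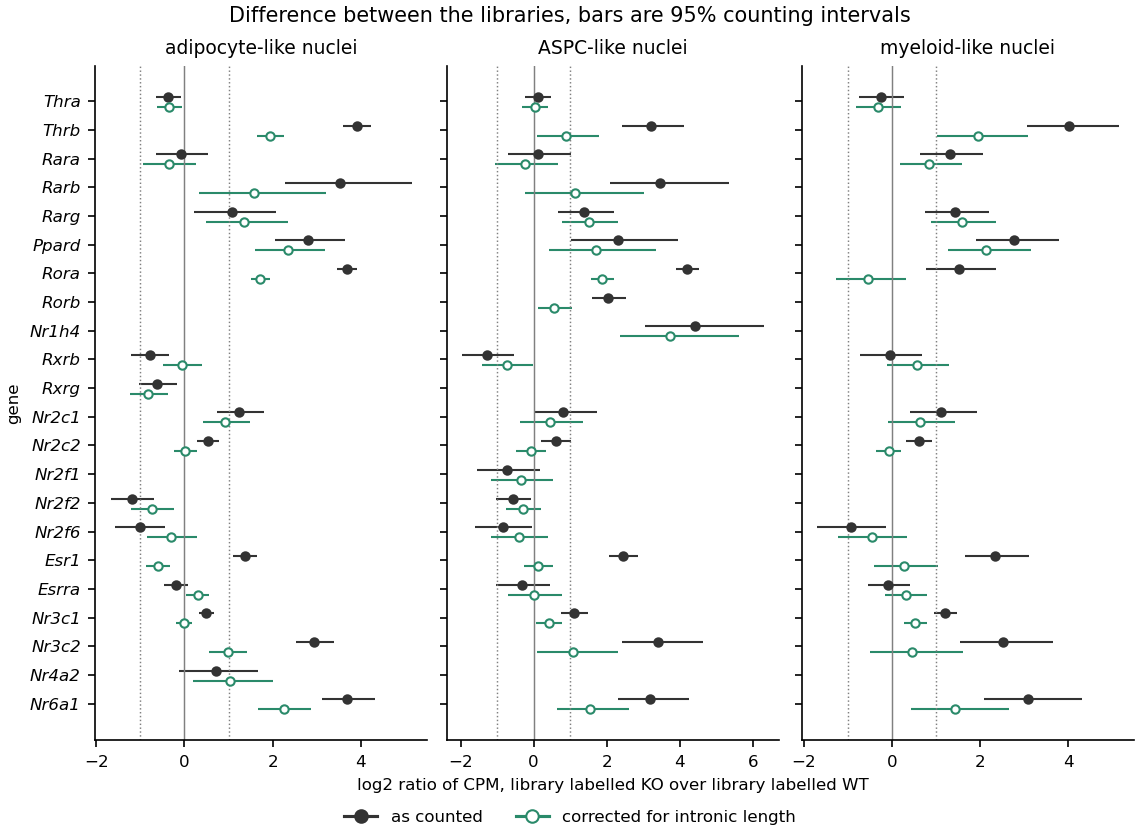
Log2 ratio of CPM (labelled KO over labelled WT) for the members with at least 50 counts in adipocyte-like, ASPC-like and myeloid-like nuclei, with 95% counting intervals. Black points are as counted, open green points are corrected for intronic length, and dotted lines mark 2 times either way. Correction moves Thrb, Rora, Esr1 and Nr3c2 toward 0 in all 3 panels, and Nr1h4 stays the farthest from 0 in ASPC-like nuclei.

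The ratio moved with intron length over all genes, and nuclear RNA is rich in unspliced transcripts. Genes with at most 3000 intronic bases had a median log2 ratio of -0.90 (1300 genes) in adipocyte-like nuclei, and genes with over 100000 intronic bases had 1.42 (1436 genes). The same medians were -0.61 and 1.60 in ASPC-like and -0.71 and 1.53 in myeloid-like nuclei. Members with over 100000 intronic bases were 6 in adipocyte-like nuclei (Thrb, Rarb, Rora, Esr1, Nr3c2 and Nr6a1), with log2 ratios between 1.36 and 3.90, against a median of -0.08 over the other 13. With Rorb there were 7 in ASPC-like nuclei, between 2.04 and 4.20, against a median of 0.12. Over the members, Pearson's r of the log2 ratio with the log10 of intronic length was 0.84 (19 members), 0.89 (20) and 0.78 (15) in the 3 classes, a description over genes that share libraries.

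**Figure D4:**
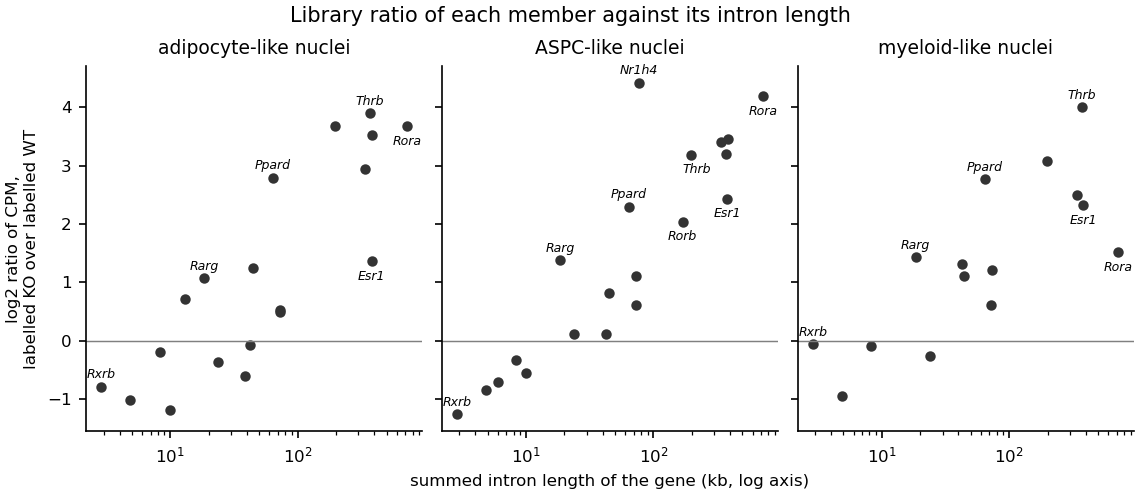
Log2 ratio of CPM (labelled KO over labelled WT) of each member against its summed intron length in kb on a log axis, for adipocyte-like, ASPC-like and myeloid-like nuclei. Rora, Thrb, Rarb, Nr3c2 and Nr6a1, all with over 100000 intronic bases, are the top 5 in adipocyte-like nuclei, Esr1, also over 100000, lies lower (1.36), and Nr1h4 lies highest in ASPC-like nuclei.

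After subtraction of the trend of all genes with intronic length, 7 members were at least 2 times higher in adipocyte-like nuclei (19.8% of all genes), 7 in ASPC-like (15.1%) and 4 in myeloid-like nuclei (16.2%), and none was lower (11.7%, 8.61% and 11.8%). Corrected log2 ratios in adipocyte-like nuclei were 2.34 for Ppard, 2.25 for Nr6a1, 1.94 for Thrb, 1.72 for Rora, 1.57 for Rarb, 1.34 for Rarg and 1.04 for Nr4a2, which was under 2 times before correction (1.64 times). Nr1h4 had the largest corrected value in ASPC-like nuclei (3.73), followed by Rora (1.88), Ppard (1.70), Nr6a1 (1.53), Rarg (1.50), Rarb (1.14) and Nr3c2 (1.09). Esr1 turned from 1.36 to -0.60 in adipocyte-like nuclei, and Rora from 1.52 to -0.54 in myeloid-like nuclei. Whether intronic reads were counted, and alike in both libraries, is not given in the sources used here. Counting, preparation and genotype cannot be told apart with 1 library each.

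Nr2f2 was the only member at or under 0.5 times among the 4 read in endothelial-like nuclei, and went from 626 CPM (511 to 760.2) in endothelial-like nuclei labelled WT to 114 CPM (75.9 to 165) in those labelled KO. At resolution 0.2 the endothelial-like class labelled WT took in the unnamed cluster (236 nuclei in all). That cluster had less Nr2f2, so the gap between the libraries is smaller there. Of 5 lymphatic endothelial genes, a list chosen after values were seen, 4 were also lower and Pdpn was not. Prox1, the lymphatic master regulator, was at 362 and 28.6 CPM, Mmrn1 at 215 and 57.1, the hyaluronan receptor Lyve1 at 583 and 36.7, the growth factor receptor Flt4 at 141 and 32.6 and Pdpn at 0 and 16.3 CPM (labelled WT and KO). Nuclei with UMIs of at least 2 of these 5 genes numbered 20 of 90 labelled WT and 3 of 122 labelled KO. Without them, Nr2f2 stood at 446 CPM in 70 nuclei and 114 CPM in 119 nuclei, a ratio of 0.256 (0.154 to 0.415). Endothelial-like nuclei had medians of 1278 and 1644.5 UMIs (labelled WT and KO), so lymphatic nuclei may hold UMIs of fewer than 2 of these genes. The split therefore cannot remove them all, and the part of lymphatic nuclei in the Nr2f2 ratio was not tested.

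Genes that act with the members were read from lists chosen with earlier results of these data known. Of 12 genes of retinoid handling, 7 could be read for class enrichment. Aldh1a1, which makes retinoic acid, was enriched in adipocyte-like nuclei of both libraries, and Aldh1a3 (also a maker) and Cyp26b1 (which degrades it) were enriched in ASPC-like nuclei. Aldh1a1 stood at 35.3 CPM against 1047 CPM (labelled WT and KO) in adipocyte-like nuclei, a ratio of 29.6, and 14.5 in ASPC-like nuclei, with corrected log2 ratios of 4.67 and 3.56. The retinaldehyde reductase Dhrs3 was at 0.476 times in ASPC-like nuclei. By class, 1 of the 4 readable genes of this list was at least 2 times higher in adipocyte-like nuclei (25.5% of all genes). In ASPC-like nuclei 2 of 6 were higher and 1 lower (25.2% and 8.62%), and in myeloid-like nuclei 3 of 5 were higher (24.8%). Corrected for intronic length, 2 of the 4 were higher in adipocyte-like nuclei (19.8% of all genes), 2 of the 6 in ASPC-like (15.1%) and 3 of the 5 in myeloid-like nuclei (16.2%).

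For thyroid hormone handling, the transporter Slc16a10 was enriched in adipocyte-like nuclei of both libraries, the leading class of Thrb among the 5 compared. Slc16a10 was 5.84 times higher in adipocyte-like nuclei labelled KO (69.1 CPM against 404 CPM) and 0.959 times the level labelled WT in ASPC-like nuclei. Its log2 ratio in adipocyte-like nuclei was 1.70 after correction for intronic length. Thrsp and Hr, known thyroid hormone targets, were enriched in adipocyte-like nuclei of both libraries, and stood at 0.826 and 1.31 times between them.

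Of 9 glucocorticoid receptor targets, 9 could be read in adipocyte-like and ASPC-like nuclei, and 3 were at least 2 times higher in adipocyte-like nuclei labelled KO, 3 in ASPC-like and 5 of 8 in myeloid-like nuclei, with none lower (all genes higher 25.5%, 25.2% and 24.8%). Fkbp5, a chaperone that the receptor induces, was 47.1 times higher in adipocyte-like (17.2 CPM against 808 CPM), 13 times in ASPC-like and 66.5 times in myeloid-like nuclei. The transcription factor Zbtb16 was 16.5, 21.5 and 44.4 times higher, and Tsc22d3 (GILZ) 6.78, 2.40 and 3.66 times. Dusp1 (0.870, 0.740 and 0.799 times) and Sgk1 (0.771, 0.594 and 0.555 times) were not among those past the threshold. Corrected for intronic length, 5 were higher and 1 lower in adipocyte-like nuclei (all genes 19.8% and 11.7%), where Fkbp5 stood at a log2 ratio of 4.64 and Sgk1 at -1.30. Corrected counts were 3 higher and 1 lower in ASPC-like (15.1% and 8.61%) and 5 higher and 1 lower in myeloid-like nuclei (16.2% and 11.8%). Tsc22d3 in ASPC-like nuclei was under 2 times after correction (log2 ratio 0.77). Nr3c1 itself differed by 1.41 times in adipocyte-like nuclei (1.25 to 1.60) as counted, a ratio that the correction turned to just below 1.

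Of 8 steroid and vitamin D genes, 3 could be read for class enrichment. The vitamin D hydroxylase Cyp2r1 was enriched in myeloid-like nuclei of both libraries (7.30% of all genes) and the cortisone-activating enzyme Hsd11b1 in lymphocyte-like nuclei (10.7%). Between the libraries Hsd11b1 was at 0.359 times in myeloid-like nuclei labelled KO. Angptl4, an inhibitor of lipoprotein lipase induced by Ppard and other fatty acid receptors, was at 0.387 times in adipocyte-like (586 CPM against 227 CPM) and 0.244 times in ASPC-like nuclei. Its corrected log2 ratios were -0.65 and -1.57, so that only the latter was past 2 times after correction. Of 16 coregulators, 5 were at least 2 times higher in adipocyte-like nuclei, 6 of 14 in ASPC-like and 6 of 15 in myeloid-like nuclei (all genes 25.5%, 25.2% and 24.8%), and 0 in each class after correction for intronic length. Among 17 nuclear receptor genes beside the members, Ppara, Pparg and Nr1h3 were enriched in adipocyte-like nuclei of both libraries. Of the 11 read in adipocyte-like nuclei 4 were at least 2 times higher and 1 lower (all genes 25.5% and 18.0%), the 2 largest ratios being those of Esrrg (73.2, 20.2 to 605, from 2 counts labelled WT) and Nr1d2 (8.86), and the lower gene Nr1h2 (0.370). After correction 6 were higher and 0 lower (19.8% and 11.7%), with Nr1h2 at a log2 ratio of -0.49.

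Within ASPC-like nuclei labelled KO, clusters 5 and 6 differed in progenitor markers. Dpp4 and Pi16, genes of the interstitial progenitors, stood at 1592 and 2314 CPM in cluster 6 (377 nuclei) against 138 and 162 CPM in cluster 5 (380 nuclei), and Bmper at 44.5 against 635 CPM. Of 20 members with at least 20 counts over both clusters, 5 were at least 2 times higher in cluster 6 (8.05% of 11108 genes, many of which took part in the clustering) and 1 was at most 0.5 times (9.66%). In this and the next cluster pairs the minimum was on the sum, so a member could pass through the cluster where it was high. Rorb stood at 487 CPM in cluster 6 and 79.0 CPM in cluster 5, 6.15 times higher (5.16 to 7.37). Nr1h4 was 6.95 times higher (5.38 to 9.08), at 254 against 36.6 CPM, and Rarb, Rarg and Esrra were 3.18, 2.42 and 2.09 times higher. Nr2f2 went the other way, with 12.1 CPM in cluster 6 and 68.2 CPM in cluster 5 (0.178 times, 0.0970 to 0.304). Thrb and Esr1, by contrast, stood at 0.956 and 0.976 times, with intervals that include 1.

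**Figure D5:**
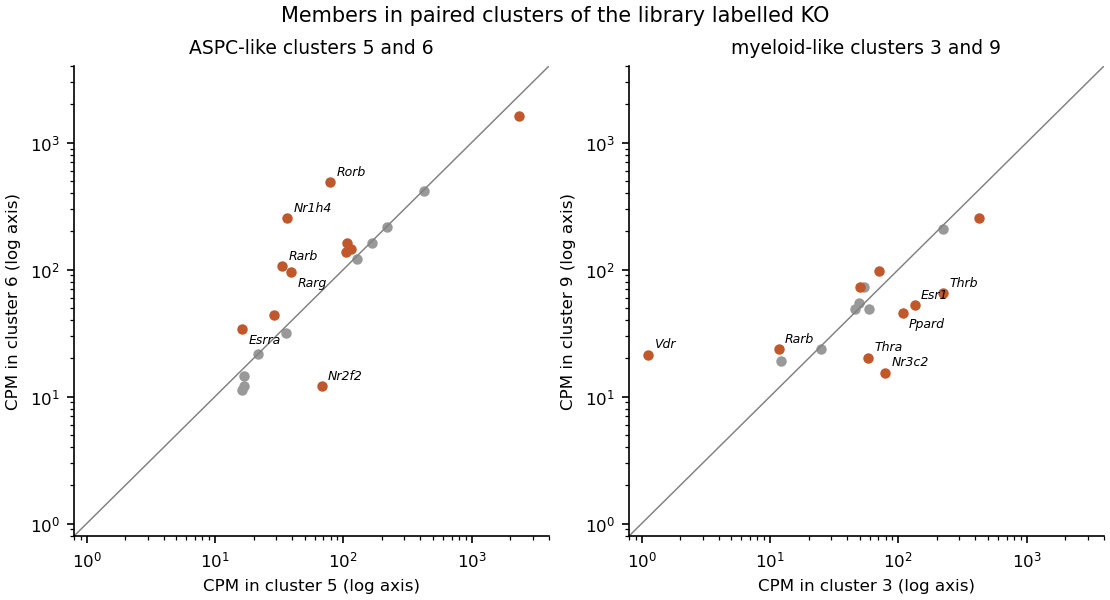
CPM of each member with at least 20 counts in 2 clusters of the same class of the library labelled KO on log axes, cluster 5 against cluster 6 (ASPC-like) and cluster 3 against cluster 9 (myeloid-like). Orange marks members whose 95% interval of the ratio excludes 1. Rorb and Nr1h4 lie above and Nr2f2 below the diagonal among ASPC-like clusters, while Vdr lies above and Nr3c2 and Thrb below it among myeloid-like clusters.

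The myeloid-like nuclei labelled KO split in the same manner. Cluster 3 (543 nuclei) had the resident macrophage markers Cd163 at 2032 and Mrc1 at 3319 CPM, against 151 and 828 CPM in cluster 9 (239 nuclei). Of 17 members read, 5 were at most 0.5 times in cluster 9 (10.1% of 10319 genes) and 2 at least 2 times (9.13%). Lower in cluster 9 were Nr3c2 (0.195 times, 0.101 to 0.344), Thrb (0.294 times), Thra (0.348 times), Esr1 (0.391 times) and Ppard (0.417 times). Vdr went the opposite way, with 18 of its counts in cluster 9 and 2 in cluster 3, at 21.4 and 1.12 CPM (19.2 times, 4.59 to 170.4), and Rarb was 2.03 times higher from 20 and 21 counts. Vdr just met the minimum of 20 counts, mostly through cluster 9, so its call rests on the cluster where it was high. Nr3c1 was at 0.598 times (0.512 to 0.697).

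In the library labelled WT the lymphocyte-like nuclei held a cluster with B cell markers (cluster 0, 1236 nuclei, Cd79a at 1414 and Cd3e at 47.8 CPM) and another with T cell markers (cluster 2, 780 nuclei, Cd79a at 309.8 and Cd3e at 544 CPM). Of 12 members read, Rarg, Rora and Thra were at least 2 times higher in cluster 2 (8.10% of 9754 genes) and Ppard at most 0.5 times (6.16%). Rarg stood at 21.9 against 2.24 CPM (9.75 times, 2.95 to 50.7), from 23 and 3 counts, Rora at 48.5 against 15.7 CPM (3.09 times) and Thra at 48.5 against 17.9 CPM (2.70 times). Rarg passed the count minimum through cluster 2 alone. Ppard was at 7.6 against 18.7 CPM (0.407 times). Nr3c1 stood at 132 CPM in cluster 0 and 147 CPM in cluster 2.

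When the library labelled KO was clustered without the other library, its adipocyte-like clusters were KO0 (527 nuclei) and KO3 (364 nuclei). Of 20 members read, Esrrb was 5.63 times higher in KO3 (28 against 4 counts, 1.97 to 22.1, background 7.16%) and Nr4a2 at 0.485 times (5.57%). Esrrb passed the count minimum through KO3 alone. Thrb differed by 0.936 times and Nr3c1 by 0.946 times.

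Classes present mainly in 1 library are given as levels. Mural-like nuclei labelled KO (43 nuclei) had Nr2f2 at 406.5 CPM from 55 counts, 21 times (15.5 to 28.1) the level of the other nuclei of that library, Nr2f1 at 51.7 CPM (13.3 times, from 7 counts), Rarb at 140.4 CPM (4.14 times, from 19 counts), Rora at 2838 CPM (2.43 times), Nr3c2 at 325 CPM (2.19 times), Rarg at 66.5 CPM (2.08 times, from 9 counts) and Ppard at 103 CPM (1.91 times, from 14 counts). Myocyte-like nuclei labelled KO (54 nuclei, 0 labelled WT), with muscle fiber markers, had Nr6a1 at 537 CPM (3.95 times the other nuclei), Rxrg at 48.1 CPM (3.87 times, from 13 counts), Rarb at 104 CPM (3.08 times, from 28 counts), Nr3c2 at 429 CPM (2.95 times), Rora at 3068 CPM (2.67 times), Esr1 at 459 CPM (2.31 times) and Thrb at 781 CPM (1.81 times), with 0 counts of Rorb, Nr1h4 and Rarg. The cluster left unnamed in the library labelled WT (146 nuclei, 0 labelled KO, led by Foxq1 and Tfap2a) had Nr2f2 at 209.6 CPM from 59 counts, Nr2f1 at 88.8 CPM from 25 and Ppard at 56.8 CPM from 16. It passed 5 mural markers (Pdgfrb, Kcnj8, Myh11, Acta2 and Tagln) against 3 epithelial ones, too small a lead for a name. Clusters led by Foxq1 were named mural with doublet calls kept (160 nuclei labelled WT) and with separate clustering (117). With Nr2f1 at 25 of its 60 counts there, the unnamed cluster held more Nr2f1 than the 17 counts of the ASPC-like nuclei labelled WT.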

How the data were processed

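The deposited files held UMI counts per gene and nucleus, made by the authors with Cell Ranger 6.1.1 (file header) from 10x 3′ libraries, and the submitters' processing notes name Seurat 4 and the build mm10. Whether intronic reads were counted, whether both libraries were counted alike and whether free RNA was removed is not given in the sources used here. Barcodes with at least 500 genes and at most 5% mitochondrial UMIs were kept. Scrublet (scanpy 1.11.5) marked doublets, and where its threshold marked under 0.5% the top 4% were removed, which was the case in the library labelled WT (146 removed, against 94 in the library labelled KO). Both matrices were merged, scaled to 10000 UMIs and clustered in Seurat 5.3.0 (R 4.3.3) on 2000 variable genes without nuclear receptors, 20 principal components, 20 neighbours and resolution 0.5. A cluster was named when at least 3 markers of a class, each in at least 5% of nuclei, led by at least 3 markers over the next class.

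Levels were summed counts over the class total (CPM) with exact Poisson intervals, ratios had exact conditional binomial intervals, and shares exact Clopper-Pearson intervals, all at 95% and for counting error only. A count of 0 was set at 3 counts for its upper limit. Shares were read at 1000 UMIs per nucleus. With 1 library per genotype no test was run. Python 3.11.15 with scipy 1.17.1 was used, and TMM factors came from edgeR 4.0.16. Intronic lengths came from GENCODE M1 models (lengths only, 31 of 31 members), and the correction subtracted the median trend of all genes over 20 bins of length. Promoters came from RefSeq (GRCm38.p6). Scripts were tested on simulated data.

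The members and gene lists were chosen with earlier results of these data known. All 31 members were described. From the lists, genes were named for the 2 highest and 2 lowest ratios in a class among those with at least 50 counts, or when they make, remove or are induced by a member's ligand. Alternatives were separate clustering, other resolutions, at least 1000 genes, doublets kept, TMM scaling, totals without mitochondrial genes and Malat1, intronic length, other count minimums, equal weight of classes and thinning to 500 UMIs. Some genes of the lists are not reported here.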

Additional observations from a re-analysis of the deposited data

Results flagged for a closer look

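Member UMIs also lay in barcodes that the filters on genes and mitochondrial share left out, which no comparison used. They numbered 1473 (labelled WT) and 2730 (labelled KO). They belong to no class.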

How the results depend on the processing

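The correction for intronic length turned the ratio (labelled KO over labelled WT) of Esr1 (0.660) and Nr3c1 (0.989) in adipocyte-like, Nr2c2 (0.944) in ASPC-like and Rora (0.689) and Nr2c2 (0.945) in myeloid-like nuclei to below 1. It left 7 members higher in ASPC-like and 4 in myeloid-like nuclei, and 0 lower in adipocyte-like and ASPC-like nuclei. Members lower in adipocyte-like nuclei numbered 1 with nuclei of at least 1000 genes, with doublet calls kept or under TMM scaling, and 7 with no count minimum. In ASPC-like nuclei 2 were lower with doublet calls kept or without mitochondrial genes and Malat1, and 4 with no count minimum. In myeloid-like nuclei 1 was lower under TMM scaling or without mitochondrial genes and Malat1, 3 with at least 20 counts and 5 with no minimum. Members enriched in ASPC-like nuclei of both libraries numbered 2 with nuclei of at least 1000 genes, and 1 (Rarg) was enriched in myeloid-like nuclei there and at resolution 0.2. The cause of these changes was not tested. Separate clustering and resolution 1.0 moved no count of higher, lower or enriched members by over 1.5 times, nor did at least 50 counts per library and equal weight of the classes for enriched members. Equal weight ended the enrichment of Rarg in ASPC-like nuclei, at 1.64 times (labelled WT) and 1.60 times (labelled KO). Counts of depleted members were not among those recomputed. Thinning to 500 UMIs moved 80 of 95 shares. No paired analysis was possible because each genotype was 1 pooled library. Depth limits the library labelled WT most, where 11 members had under 20 counts.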
